A study of Sus scrofa with 9 samples.

Results

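The genes described here belong to the aryl hydrocarbon receptor (AHR) axis: CYP1A1, TIPARP, CYP1B1, AHR, ARNT, AHRR, NQO1, ALDH3A1 and EDC3. Members were taken by gene symbol, and 7 of the 9 were analysed, out of 25149 genes listed in the table. CYP1B1 and AHRR were not analysed here. All 7 passed the filter on low values (at least 1 TPM in at least 3 hearts), as did 11782 genes in total. CYP1A1 and TIPARP had been selected on their measured difference between Group 1 and Group 2, so their values in that comparison are a description and carry no test. EDC3 is not a classical gene of this pathway, and it may have been selected on the same difference, so its values there carry no test either. It is the next gene to CYP1A1 in the RefSeq gene order of the pig (assembly Sscrofa11.1).

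AHR is a transcription factor that is held in the cytosol by HSP90 and the co-chaperone PTGES3 until a small molecule binds it. Planar pollutants and products of tryptophan breakdown are known ligands. Bound AHR moves to the nucleus, pairs with ARNT and switches on genes of foreign-compound metabolism, of which CYP1A1, a cytochrome P450 monooxygenase, is the usual readout. TIPARP, a mono-ADP-ribosyltransferase of the PARP family, and AHRR are also induced and act back on AHR as inhibitors. NQO1, a quinone reductase, and ALDH3A1, an aldehyde dehydrogenase, are further known targets.

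The study asked how hearts donated after circulatory death respond to storage and to reperfusion in the donor. Female American Yorkshire pigs aged 4 to 6 months went through simulated circulatory death with 15 min of warm ischemia, under the same anesthesia, heparin and vecuronium in every group. Group 1 (NRP + HOPE 24 h, pigs 27, 28 and 30) had normothermic regional perfusion (NRP) for 60 min, a warm reperfusion of the organs while still inside the donor, and then 24 h of hypothermic oxygenated perfusion (HOPE) at 8 °C. Group 2 (NRP + SCS 2 h, pigs 24, 25 and 29) had the same NRP and then 2 h of static cold storage (SCS) at 4 °C. Group 3 (No NRP + HOPE 2 h, pigs 31, 33 and 34) was procured directly and kept in HOPE for 2 h at 8 °C. The HOPE perfusate held donor packed red cells, insulin, antibiotics, heparin and potassium, whereas SCS hearts lay in storage solution. All hearts were then reperfused and paced for 2 h on a normothermic machine perfusion (NMP) circuit with donor blood, and 1 apex biopsy per heart was frozen at its end. Group 1 therefore differed from Group 2 in storage method, temperature, duration and perfusate together. Group 3 differed from Group 2 in NRP, storage method, temperature and perfusate. Group 1 differed from Group 3 in both NRP and storage duration. Within each comparison these cannot be told apart.

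Expression was given as TPM, which are read numbers divided by gene length and set to a total of 1000000 per heart, and the read depth is unknown. The labels call the cell type cardiomyocytes, but the tissue was whole myocardium. Cardiomyocyte markers summed to 31410 to 60090 TPM across hearts with 8 of 12 listed and none at 0, while endothelial markers summed to 434 to 969 TPM, and fibroblast markers to 723 to 1224 TPM. Hearts correlated with each other at 0.955 to 0.977 across genes, and pigs 34 and 30 lay farthest from the others on average (mean distance 90 and 87.6, against 74.5 to 85 for the remaining hearts). In such bulk tissue, fewer cells of a type and less RNA per cell cannot be told apart.

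CYP1A1 and TIPARP were higher in each of the 6 HOPE hearts than in any of the 3 SCS hearts, while the transcripts of the receptor AHR and its partner ARNT overlapped between all groups. CYP1A1 averaged 52.4 ± 19.6 TPM (SD, n = 3) in Group 1, 42.0 ± 54.0 TPM in Group 3 and 3.40 ± 2.37 TPM in Group 2. TIPARP averaged 55.2 ± 25.7 TPM in Group 1, 26.3 ± 9.98 TPM in Group 3 and 7.79 ± 1.82 TPM in Group 2. Of all genes tested, 79 (0.671%) had every HOPE heart above every SCS heart. Group 1 against Group 2 selected CYP1A1 and TIPARP, so their place among the 79 is in part fixed by that choice.

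**Figure D1:**
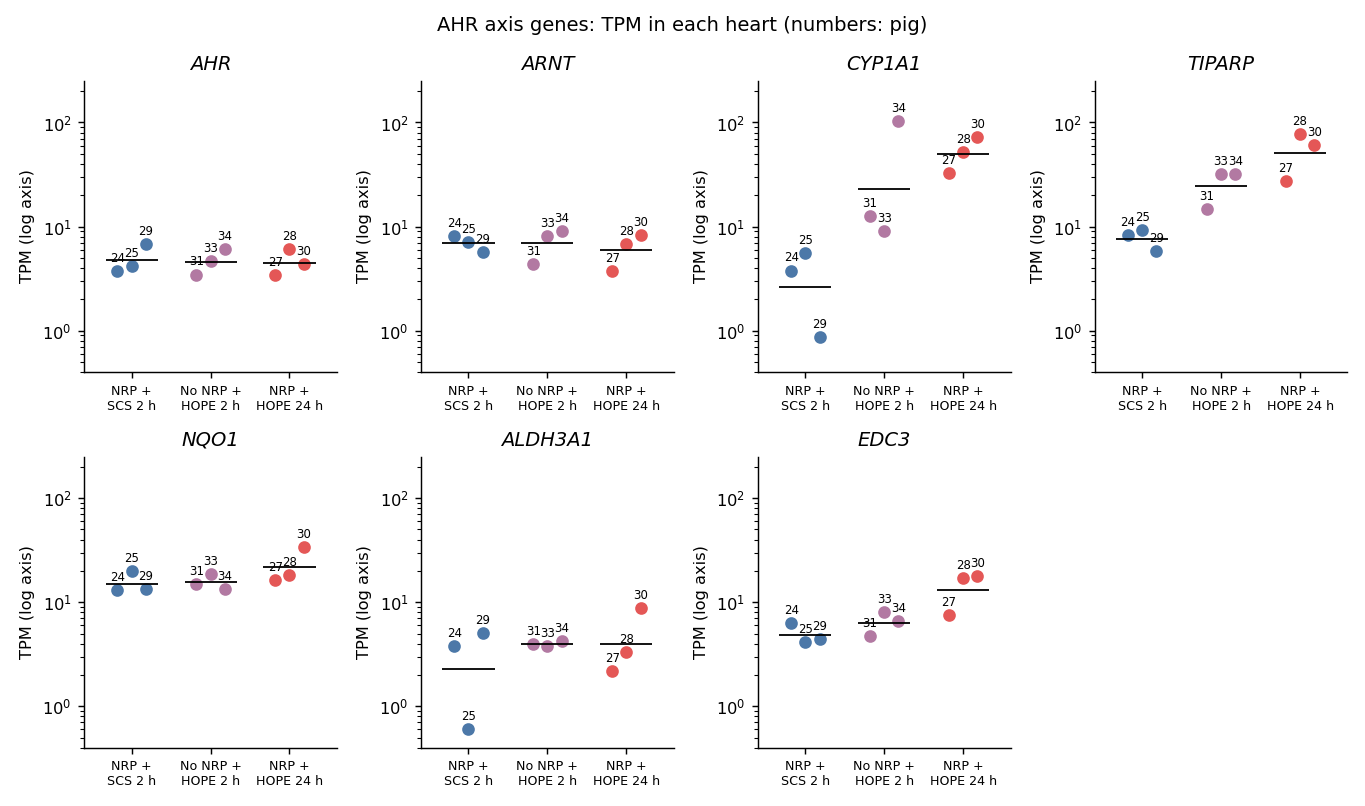
TPM of the 7 AHR axis genes in each heart on a log axis, with 1 point per heart, labelled by pig number, and a line at the geometric mean of each group. CYP1A1 ran from 0.863 TPM in pig 29 to 104 TPM in pig 34, and AHR only from 3.40 to 6.85 TPM.

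The receptor itself was expressed at a low level in every heart. AHR (ENSSSCG00000030484) had 3.72, 4.17 and 6.85 TPM in Group 2 (pigs 24, 25 and 29), 3.46, 4.68 and 6.05 TPM in Group 3 (pigs 31, 33 and 34), and 3.40, 6.04 and 4.38 TPM in Group 1 (pigs 27, 28 and 30). The 3 groups overlapped, and the highest heart was only 2.02 times the lowest. Group 3 differed from Group 2 by a log2 fold change of -0.03 (95% interval -0.75 to 0.69, adjusted p = 0.992, limma), and Group 1 from Group 3 by -0.03 (-0.75 to 0.68, adjusted p = 0.998, limma). Against Group 2, the log2 fold change of Group 1 was -0.07 with a standard error (SE) of 0.33. All fold changes are on the log2(TPM + 1) scale, which understates changes of low genes.

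ARNT (ENSSSCG00000006646), the partner that AHR needs to bind DNA, overlapped between all groups as well. Its level was 8.12, 7.08 and 5.71 TPM in Group 2, 4.37, 8.14 and 9.13 TPM in Group 3, and 3.76, 6.80 and 8.26 TPM in Group 1, in the same pig order. Pigs 27 and 31 were the lowest and the groups overlapped. The log2 fold change was 0.00 for Group 3 over Group 2 (95% interval -0.76 to 0.76, adjusted p = 0.999, limma) and -0.18 for Group 1 over Group 3 (-0.94 to 0.58, adjusted p = 0.993, limma). With 3 hearts per group, the intervals of AHR and ARNT still admitted log2 changes as low as -0.94 and as high as 0.76.

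The other known partners were taken as a list of 15 genes of the AHR complex, of which 14 were listed and tested. A gene was called when its adjusted p was under 0.05 and its log2 fold change exceeded 1 in size. Only 0.0509% of all genes tested were called in Group 3 over Group 2, and 0.0509% in Group 1 over Group 3. A count of 0 called in a short list therefore says little about that list. None of the 14 was called in Group 3 over Group 2 or in Group 1 over Group 3 (limma), and at an unadjusted p under 0.05 there were 0 and 1, beside 7.22% and 6.01% of all genes tested. The median log2 fold change of the list was -0.02 in Group 3 over Group 2, beside -0.07 over all genes tested, and -0.11 in Group 1 over Group 3, beside -0.03. NRIP1, a nuclear coregulator of ligand-bound receptors, had 1.88, 3.03 and 4.14 TPM in Group 1 and 1.02, 1.27 and 1.33 TPM in Group 3, with a log2 fold change of 0.83 (SE 0.35, adjusted p = 0.795, limma). NCOA3, a coactivator, reached 19.4 TPM in pig 34 but only 2.37 to 6.45 TPM in the other hearts.

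CYP1A1 (ENSSSCG00000001906) had the widest range of the 7 genes. In Group 2 it stood at 3.78, 5.55 and 0.863 TPM in pigs 24, 25 and 29. In Group 3 it stood at 12.6, 9.12 and 104 TPM in pigs 31, 33 and 34. In Group 1 it stood at 32.8, 52.3 and 72.1 TPM in pigs 27, 28 and 30. Groups 1 and 3 were each entirely above Group 2, and they overlapped each other because pig 34 exceeded every Group 1 heart while pigs 31 and 33 were below them all.

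Group 3 over Group 2 was the one comparison of CYP1A1 in which a test was made, although it shares the Group 2 hearts with the comparison that selected the gene. The ratio of group means was 12.4 and the log2 fold change was 2.65 (SE 0.72, 95% interval 1.11 to 4.19). Only 0.0509% of genes tested had a larger absolute fold change in this comparison. The difference did not pass correction (p = 0.00251, adjusted p = 0.376, limma), and the exact permutation test gave a two-sided p of 0.1, the smallest that 3 hearts against 3 allow. The log2 fold change was 1.60 without pig 34 (adjusted p = 0.429, limma) and was 3.29 without pig 33.

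The selecting comparison gave the largest fold change of the axis. CYP1A1 was 15.4 times higher in mean TPM in Group 1 than in Group 2, with a log2 fold change of 3.71 (SE 0.72), and 0.017% of genes tested had a larger one. Group 1 over Group 3 gave a ratio of means of 1.25 and a log2 fold change of 1.06 (SE 0.72), with groups that overlapped. That fold change was 2.12 without pig 34 and 0.43 without pig 33, so that its size, but not its sign, rested on single hearts. By group mean the order was Group 1, Group 3 and Group 2. Groups 1 and 3 overlapped through pig 34, and whether they differ was not tested.

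The variation of CYP1A1 among hearts of 1 group was large. Its pooled SD within groups was 1.24 on the log2(TPM + 1) scale, against a median of 0.42 over all genes tested, and 1.69% of genes had a larger one. Within groups the SD was 1.84 in Group 3, 0.94 in Group 2 and 0.56 in Group 1. Among the genes of a heart ordered by TPM, CYP1A1 took place 721 in pig 34, places 1169 to 1426 in Group 1, places 3196 and 5007 in pigs 31 and 33, and places 6539 to 11290 in Group 2.

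TIPARP (ENSSSCG00000027646) separated the same hearts with less spread. It had 8.36, 9.26 and 5.76 TPM in Group 2, 14.7, 32.3 and 31.8 TPM in Group 3, and 27.2, 77.7 and 60.6 TPM in Group 1. All HOPE hearts were above all SCS hearts, pig 31 was the lowest HOPE heart, and pig 27 of Group 1 lay below pigs 33 and 34 of Group 3. Unlike CYP1A1, TIPARP was not exceptional in pig 34.

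In Group 3 over Group 2 the TIPARP ratio of means was 3.37 and the log2 fold change 1.58 (SE 0.41, 95% interval 0.69 to 2.46), and 0.934% of genes had a larger absolute change. This comparison shares the Group 2 hearts with the one that selected TIPARP. The difference did not pass correction either (p = 0.00191, adjusted p = 0.331, limma), with an exact permutation p of 0.1, the smallest possible. When hearts were weighted by how well they fitted the model (array weights), it passed, with a log2 fold change of 1.74 and an adjusted p of 0.0254 (limma), the lowest of 19 alternatives whose adjusted p reached 0.728. Under these weights 94 genes in all were called instead of 6, so the pass was not particular to TIPARP. Pig 31, the lowest HOPE heart for TIPARP, had a weight of 0.483, against 2.599 for pig 33. For the selecting comparison, Group 1 over Group 2, the log2 fold change was 2.57 (SE 0.41, ratio of means 7.08), and 0.0594% of genes had a larger one. Group 1 over Group 3 gave 1.0 (SE 0.41, ratio of means 2.10), with overlapping groups. TIPARP's order of group means was Group 1, Group 3 and Group 2, and the neighbours Group 1 and Group 3 overlapped.

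Relative to AHR in the same heart, both genes were lowest under SCS. The ratio of CYP1A1 to AHR in TPM was 0.126 to 1.33 in Group 2, 1.95 to 17.2 in Group 3 and 8.65 to 16.5 in Group 1. The ratio of TIPARP to AHR was 0.841 to 2.25 in Group 2, 4.25 to 6.90 in Group 3 and 7.99 to 13.8 in Group 1. The 3 groups did not overlap in this ratio, but TIPARP itself overlapped between Groups 1 and 3. Pig 27, its lowest Group 1 heart, also had the lowest AHR, at 3.40 TPM. Both genes were selected on Group 1 against Group 2, so these orders are in part fixed by that choice. The share of all genes with such an order was not counted. CYP1A1 over TIPARP was 3.28 in pig 34 and 0.150 to 1.21 in the other 8 hearts.

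NQO1 and ALDH3A1, the remaining target enzymes, did not separate the groups. NQO1 (ENSSSCG00000002754) had 13, 19.9 and 13.4 TPM in Group 2, 14.9, 18.8 and 13.3 TPM in Group 3, and 16.5, 18.4 and 34.1 TPM in Group 1. Pig 30 alone exceeded 20 TPM. The log2 fold change of NQO1 was 0.03 for Group 3 over Group 2 (95% interval -0.68 to 0.74, adjusted p = 0.992, limma) and 0.47 for Group 1 over Group 3 (-0.24 to 1.18, adjusted p = 0.943, limma). It was 0.50 (SE 0.33) for Group 1 over Group 2.

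ALDH3A1 (ENSSSCG00000018044) had 3.79, 0.605 and 5.05 TPM in Group 2, 4.01, 3.78 and 4.24 TPM in Group 3, and 2.20, 3.32 and 8.85 TPM in Group 1. Pig 25 was the lowest and pig 30 the highest, while the Group 3 hearts lay close together. The log2 fold change of ALDH3A1 was 0.48 for Group 3 over Group 2 (95% interval -0.60 to 1.55, adjusted p = 0.901, limma), 0.04 for Group 1 over Group 3 (-1.03 to 1.11, adjusted p = 0.998, limma) and 0.52 (SE 0.50) for Group 1 over Group 2. Without pig 25 the first of these was -0.11 and the last was -0.07.

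**Figure D2:**
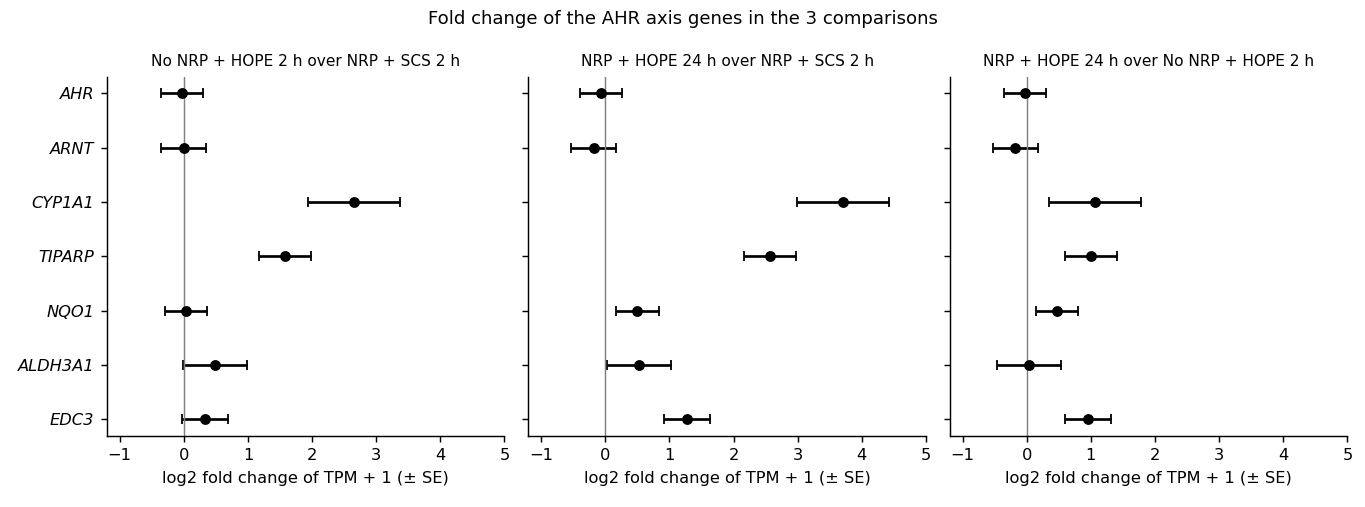
Log2 fold change of TPM + 1 for the 7 AHR axis genes in the 3 comparisons, where points are limma estimates from 3 hearts per group and bars are 1 SE. CYP1A1 and TIPARP lay at 2.65 and 1.58 for Group 3 over Group 2, whereas the other 5 genes lay between -0.03 and 0.48.

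Counted over the axis, none of the 7 genes was called in Group 3 over Group 2, where 6 genes in all (0.0509%) were called, and none of the 5 tested in Group 1 over Group 3, where 6 genes (0.0509%) were called as well. With the unadjusted p in place of the adjusted one and the same fold change, the count was 2 of 7 members in Group 3 over Group 2, beside 3.46% of all genes, and 0 of 5 in Group 1 over Group 3, beside 3.3%. A log2 fold change over 1 in size, whatever the p, was reached by 2 of 7 in Group 3 over Group 2 (4.6% of all genes), by 1 of 7 in Group 1 over Group 3 (4.24%) and by 3 of 7 in Group 1 over Group 2 (3.16%). Groups stood apart with the first one higher for 2 of 7 members in Group 3 over Group 2 (4.44%), 0 of 7 in Group 1 over Group 3 (2.97%) and 3 of 7 in Group 1 over Group 2 (2.5%). Nothing is read from the last comparison, which selected members, nor from the counts in Group 3 over Group 2, which rest on the 2 selected genes and share the Group 2 hearts with that selection.

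A wider list of AHR targets held 20 genes, of which 11 were listed and 8 passed the filter. CYP1A2, the liver-type relative of CYP1A1, was at 0.101 TPM or less in all hearts, and GSTA1 and LRAT were also below the filter. None of the 8 was called in Group 3 over Group 2, and none of those other than CYP1A1 and TIPARP, which were not tested there, in Group 1 over Group 3. In each of these comparisons 0.0509% of all genes tested were called. SERPINB2, an inhibitor of plasminogen activators, had 230, 305 and 160 TPM in Group 2, 108, 117 and 293 TPM in Group 3, and 169, 585 and 484 TPM in Group 1. Its log2 fold change was 1.23 for Group 1 over Group 3 (SE 0.47, adjusted p = 0.734, limma, exact permutation p = 0.2) and -0.53 for Group 3 over Group 2 (adjusted p = 0.879, limma), so its lowest group was Group 3 and not Group 2. STC2, a secreted glycoprotein, had a log2 fold change of -0.72 in Group 3 over Group 2 (adjusted p = 0.715, limma), and NFE2L2, the transcription factor of the antioxidant response, one of 0.24 (adjusted p = 0.923, limma). The median of the 8 targets was 0.15 in Group 3 over Group 2, 0.38 in Group 1 over Group 3 and 0.53 in Group 1 over Group 2, beside -0.07, -0.03 and -0.12 over all genes tested, and these medians include the 2 selected genes.

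Enzymes that make or clear AHR ligands from tryptophan and related amines formed a list of 14 genes, with 11 listed and 6 tested. IDO2, TDO2 and AADAT were at 0 in all hearts. IDO1, which opens the tryptophan ring, was 1.53 TPM at most, in pig 28, and fell below the filter. None of the 6 was called in either tested comparison, beside 0.0509% of all genes tested in each. An unadjusted p under 0.05 (limma) was reached by 0, beside 7.22% of all genes in Group 3 over Group 2 and 6.01% in Group 1 over Group 3. The largest changes were in MAOB, a monoamine oxidase, at 0.59 for Group 3 over Group 2 (adjusted p = 0.823, limma) and in KYAT1, a kynurenine aminotransferase, at -0.69 for Group 1 over Group 3 (adjusted p = 0.931, limma).

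The bHLH-PAS family to which AHR and ARNT belong comprised 18 symbols, 14 of them in the table and 9 tested. Of these, 0 were called in either tested comparison (limma), beside 0.0509% of all genes tested in each. At an unadjusted p under 0.05 there were 0 in Group 3 over Group 2, beside 7.22% of all genes, and 1 (ARNTL2) in Group 1 over Group 3, beside 6.01%. HIF1A, the oxygen-sensitive family member that also pairs with ARNT, had 121, 102 and 88.8 TPM in Group 2, 34.6, 67.3 and 86.4 TPM in Group 3, and 31.4, 73.1 and 83.5 TPM in Group 1. Every HOPE heart was thus below every SCS heart, with a log2 fold change of -0.80 for Group 3 over Group 2 (SE 0.40, adjusted p = 0.718, limma). The share of all genes with that order of hearts was not counted. ARNTL2, a clock-related partner, had 0.628, 2.38 and 5.64 TPM in Group 1 and 0.247, 0 and 0.214 TPM in Group 3 (log2 fold change 1.53, adjusted p = 0.42, limma, exact permutation p = 0.1). The family's median was -0.34 in Group 3 over Group 2, 0.06 in Group 1 over Group 3 and -0.09 in Group 1 over Group 2, beside -0.07, -0.03 and -0.12 over all genes tested.

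**Figure D3:**
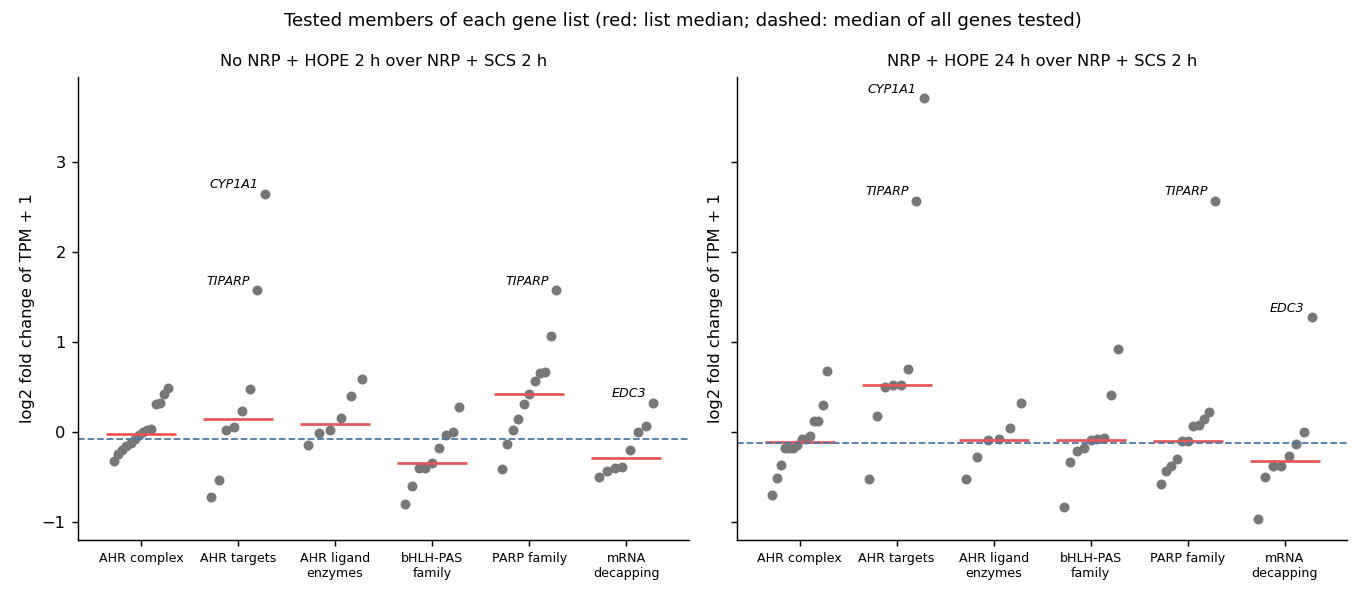
Log2 fold change of TPM + 1 for the tested members of 6 gene lists, in Group 3 over Group 2 (left) and Group 1 over Group 2 (right), with 1 point per gene, a red line at each list's median and a dashed line at the median of all genes tested. CYP1A1 and TIPARP stood above the other AHR targets, whose values in Group 3 over Group 2 ran from -0.72 to 0.48.

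Among cytochrome P450 genes CYP1A1 led by its mean over all hearts, though not in every heart. The table listed 33 P450 genes by symbol, 13 at 0 in all hearts and 9 passing the filter. CYP1A1 had the highest mean over the 9 hearts at 32.6 TPM, ahead of CYP27A1, the mitochondrial sterol hydroxylase, at 26.6 TPM and CYP51A1, the lanosterol demethylase of cholesterol synthesis, at 10.4 TPM. In the Group 2 hearts CYP27A1 stood at 20.8, 34.0 and 25.6 TPM and CYP51A1 at 10.4, 10.3 and 7.62 TPM, each above CYP1A1. CYP27A1 was also above CYP1A1 in pigs 31 and 33 of Group 3, at 21.0 and 9.18 TPM, and CYP51A1 in pig 33, at 12.2 TPM. Only CYP1A1 among the 9 had an absolute log2 fold change over 1, in each of the 3 comparisons. Of the proteins that pass electrons to P450 enzymes, CYB5A and CYB5R3 were tested and had log2 fold changes of -0.06 and -0.24 in Group 3 over Group 2 (adjusted p = 0.988 and 0.918, limma).

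EDC3 (ENSSSCG00000001903), which enhances removal of the mRNA cap before decay, had its highest mean in Group 1. Its level was 6.26, 4.11 and 4.44 TPM in Group 2, 4.76, 8.10 and 6.60 TPM in Group 3, and 7.51, 17.2 and 17.7 TPM in Group 1. Pigs 28 and 30 stood well above all other hearts, whereas pig 27 was within the Group 3 range. Group 1 was entirely above Group 2, with a log2 fold change of 1.28 (SE 0.36), given without a test, and 1.38% of genes had a larger one.

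In Group 1 over Group 3 the log2 fold change of EDC3 was 0.96 (SE 0.36, 95% interval 0.18 to 1.73) with overlapping groups. It did not pass correction (p = 0.0193, adjusted p = 0.7, limma, exact permutation p = 0.2), and the Group 1 hearts are shared with the comparison on which EDC3 may have been selected. Group 3 over Group 2 gave 0.33 (95% interval -0.45 to 1.10, adjusted p = 0.914, limma). The ratio of CYP1A1 to EDC3 was 0.194 to 1.35 in Group 2, 1.13 to 15.8 in Group 3 and 3.03 to 4.37 in Group 1, so that these neighbouring genes did not keep a fixed proportion.

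The other genes around CYP1A1 did not share its order of hearts. In RefSeq order CYP1A1 lies between CYP1A2, with CSK and LMAN1L beyond it, and EDC3, with CLK3 and ARID3B beyond it. CSK, an inhibitory kinase of the SRC family, had 13.2, 12.7 and 13.1 TPM in Group 2, 10.8, 17.0 and 12.3 TPM in Group 3, and 8.84, 10.7 and 17.4 TPM in Group 1, with overlapping groups and a log2 fold change of 0.01 for Group 3 over Group 2. CLK3, a kinase of splicing factors, had 20.4, 16.0 and 18.5 TPM in Group 2, 15.5, 17.7 and 21.4 TPM in Group 3, and 12.3, 15.3 and 17.2 TPM in Group 1. Its log2 fold change was -0.01 for Group 3 over Group 2 and -0.28 for Group 1 over Group 2, whereas EDC3 next to it had 1.28. EDC3 and CLK3 overlap in the RefSeq annotation, the strand used in counting was not given in the sources used here, and reads from the overlap could not be told apart without it. ARID3B changed by 0.18 and 0.12 in the same comparisons, and LMAN1L was at 0.481 TPM or less.

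**Figure D4:**
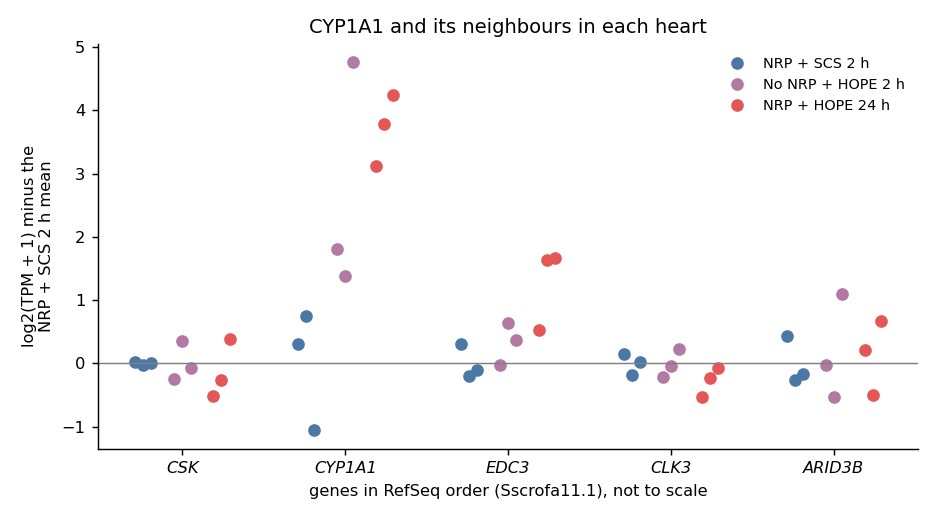
Level of CYP1A1 and 4 expressed neighbours in each heart, as log2(TPM + 1) minus the mean of the 3 NRP + SCS 2 h hearts, with genes in RefSeq order and 1 point per heart. All 6 HOPE hearts lay above the SCS hearts for CYP1A1, and pigs 28 and 30 lay highest for EDC3, whereas for CSK, CLK3 and ARID3B the groups overlapped, with pig 34 the highest for ARID3B at 4.24 TPM and pig 27 the lowest for CSK and CLK3.

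Around TIPARP, the nearest listed genes were SSR3, a subunit of the translocon-associated complex, and CCNL1, a cyclin of splicing. SSR3 ranged from 42.3 to 80.0 TPM with overlapping groups and a log2 fold change of -0.12 for Group 3 over Group 2. CCNL1 had 449, 311 and 355 TPM in Group 2, 255, 360 and 486 TPM in Group 3, and 284, 263 and 286 TPM in Group 1, so that Group 1 was below Group 2 (log2 fold change -0.40). Each of these overlaps another gene in RefSeq, SSR3 with KCNAB1 and CCNL1 with VEPH1, so their reads are subject to the same limit as those of EDC3 and CLK3. The share of all genes that, like CCNL1, had Group 1 entirely below Group 2 was not counted.

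TIPARP's own enzyme family was taken as a further list. Of 13 PARP family mono-ADP-ribosyltransferases 12 were listed and 11 tested, and 0 were called in either tested comparison (limma). At an unadjusted p under 0.05 there was 1 in Group 3 over Group 2, TIPARP itself, beside 7.22% of all genes tested. In Group 1 over Group 3, where TIPARP was not tested, there were PARP11 and PARP12, with log2 fold changes of -1.23 and -1.37. There 6.01% of all genes tested had such a p, and 0.0509% were called in each comparison. PARP12 had 11.7, 16.7 and 17.8 TPM in Group 2, 9.77, 31.2 and 110 TPM in Group 3, and 8.01, 13.6 and 16.2 TPM in Group 1, so that its mean in Group 3 was carried by pig 34 (log2 fold change over Group 2 1.07, adjusted p = 0.78, limma). PARP11 and PARP3 were likewise highest in pig 34, at 15.5 and 16.1 TPM, against 1.40 to 5.13 and 2.59 to 6.49 TPM in the other hearts. The family median was 0.43 in Group 3 over Group 2, -0.41 in Group 1 over Group 3 and -0.10 in Group 1 over Group 2, beside -0.07, -0.03 and -0.12 over all genes tested. In the last of these TIPARP alone exceeded 1. Of the enzymes that remove ADP-ribose, 2 of 7 passed the filter (MACROD1 and ADPRH), and neither was called in the tested comparisons, with log2 fold changes from -0.28 to 0.08.

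The decapping machinery around EDC3 was described as a list too. Of 10 genes, 9 were listed and 8 tested, and 0 were called in the 2 tested comparisons, beside 0.0509% of all genes tested in each. At an unadjusted p under 0.05 there were 0 in Group 3 over Group 2, beside 7.22% of all genes. In Group 1 over Group 3 there was 1, beside 6.01%, and it was EDC3, which may have been selected with the Group 1 hearts. In Group 1 over Group 3, 6 of the 8 had a positive value, with a median of 0.01 beside -0.03 over all genes tested. In Group 1 over Group 2, EDC3 was the only one of the 8 with a positive value, and the median was -0.32, beside -0.12 over all genes tested. DCP2, the decapping enzyme itself, had 3.55, 2.59 and 3.74 TPM in Group 2, 0.893, 2.18 and 4.30 TPM in Group 3, and 0.744, 1.13 and 1.85 TPM in Group 1, so that Group 1 lay entirely below Group 2 (log2 fold change -0.96). EDC4, a scaffold of the complex, was lower in every Group 3 heart (10, 14.3 and 12 TPM) than in Group 2 (20.0, 17.0 and 15.5 TPM), with a log2 fold change of -0.50 (adjusted p = 0.804, limma). For neither DCP2 nor EDC4 was the share of all genes standing apart in that direction counted.

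Among genes with a symbol, those whose levels ran most like those of the 2 selected genes over the 9 hearts were found by Pearson's r on log2(TPM + 1), as a description. For CYP1A1 they were CNKSR2 (r = 0.932), FBXO34 (0.932), CCS (0.919), FBXL4 (0.917) and PPP1R10 (0.911), and all of these had small fold changes, from 0.51 to 0.62 in Group 3 over Group 2. Counting genes without a symbol as well, 1 of which came in place 3 for each of the 2 genes, TIPARP came in place 15 for CYP1A1 (r = 0.867) and EDC3 in place 252 (0.672), whereas AHR had an r of 0.020. For TIPARP they were IL2RA (0.969), CNKSR2 (0.949), PPP1R10 (0.929), PLAU (0.916) and ZFP36L1 (0.906), with EDC3 in place 11 (0.892) and CYP1A1 in place 24. PLAU, the urokinase-type plasminogen activator, had 74.1, 70.9 and 59.0 TPM in Group 2, 144, 260 and 138 TPM in Group 3, and 121, 263 and 402 TPM in Group 1. IL2RA, a subunit of the interleukin-2 receptor, had 2.17, 2.00 and 1.66 TPM in Group 2, 2.44, 6.86 and 4.90 TPM in Group 3, and 5.58, 15.2 and 8.29 TPM in Group 1, with pig 29 the lowest and pig 28 the highest, as for TIPARP. The 9 points share the group differences and, with TPM, a common total per heart.

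The summed markers of some other cell types differed in range between groups. Of 7 erythroid markers 4 were listed, none at 0 in all hearts, and they summed to 72.3 to 136 TPM in Group 2, 226 to 379 TPM in Group 3 and 74.1 to 430 TPM in Group 1. The 3 tested were all higher in Group 3 than in Group 2 without overlap (median log2 fold change 1.23 beside -0.07 over all genes tested, all with an unadjusted p under 0.05, none called, limma), where 4.44% of all genes stood apart in that direction and 7.22% had such a p. Their part in the CYP1A1 and TIPARP values was not tested. Endothelial markers summed to 786 to 934 TPM in Group 2, 468 to 969 TPM in Group 3 and 434 to 907 TPM in Group 1, with 10 of 12 listed and tested, none at 0, and all 10 had a negative log2 fold change in Group 1 over Group 2 (median -0.47 beside -0.12 over all genes tested), as did 8 of 10 in Group 3 over Group 2 (median -0.26 beside -0.07). Fibroblast markers, 7 of 10 listed and none at 0, summed to 723 to 1050 TPM in Group 2, 1105 to 1224 TPM in Group 3 and 801 to 1214 TPM in Group 1, so that the sums of Groups 2 and 3 did not overlap. Of the 7, 3 stood apart higher in Group 3 than in Group 2, where 4.44% of all genes did, and 1 stood apart lower (median log2 fold change 0.27 beside -0.07). Neutrophil markers, 5 of 7 listed with CSF3R and MPO at 0, summed to only 4.84 to 14.5 TPM in Group 2, 0.799 to 4.26 TPM in Group 3 and 1.52 to 5.47 TPM in Group 1. The sums of Groups 2 and 3 thus did not overlap. Only 2 were tested, and both were negative in Group 3 over Group 2 (median -1.15 beside -0.07). Of these, 1 had an unadjusted p under 0.05, beside 7.22% of all genes, and none was called (limma). T and NK cell markers, 6 of 8 listed and none at 0, summed to 8.28 to 18 TPM in Group 2, 11.6 to 28.4 TPM in Group 3 and 7.53 to 27.7 TPM in Group 1, and 5 of 6 had a positive log2 fold change in Group 3 over Group 2 (median 0.43 beside -0.07). The part of the endothelial, fibroblast, neutrophil or T and NK cell markers in the CYP1A1 and TIPARP values was not tested. Mesothelial markers, 4 of 7 listed and none at 0, summed to 173 TPM in pig 30, the heart with the most NQO1 and ALDH3A1, and to 13.4 to 66.9 TPM in the other hearts, and their part in those values was not tested. Macrophage markers, 6 of 10 listed and none at 0, summed to 81.5 to 195 TPM in Group 2, 117 to 223 TPM in Group 3 and 66.1 to 149 TPM in Group 1, and these overlapped. Mural cell markers, 8 of 9 listed with MYH11 at 0, summed to 348 to 492 TPM in Group 2, 460 to 526 TPM in Group 3 and 240 to 449 TPM in Group 1, so that Group 1 lay below Group 3 (median log2 fold change -0.74 beside -0.03 over all genes tested, with 2 of 7 at an unadjusted p under 0.05 beside 6.01% of all genes, and none called, limma). Their part in the EDC3 value was not tested. Mitochondrially encoded genes took 38.2% (pig 30) to 55.3% (pig 27) of TPM, and CYP1A1 in Group 3 over Group 2 was 2.84 on the log2 scale with them left out.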

How the data were processed

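RNA was taken from apex biopsies of 9 hearts, 3 per group, assigned by the pig number in the labels and column names. The authors enriched mRNA with oligo(dT), sequenced paired ends, and, per the methods and the submitters' processing notes, used bcl2fastq 2.17, Trimmomatic 0.36, STAR 2.5.2b and featureCounts (Subread 1.5.2). They deposited TPM, and the gene lengths used and the genome build were not given in the sources used here, nor was the depth, so no counting intervals are given. A further 9 columns could not be tied to a sample and were not used.

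Symbols came from the table, and 748 rows without one were named from a table pairing gene IDs and symbols, and 12006 rows lacked a symbol in the table. Neighbours came from the RefSeq gene order of Sscrofa11.1. limma 3.58.1 (R 4.3.3) was run on log2(TPM + 1) with all 9 hearts, 1 mean per group and a variance trend, two-sided, over the 11782 genes that reached 1 TPM in 3 or more hearts, with Benjamini-Hochberg adjustment. Counts were not used, so the authors' DESeq2 model was not run. The fit was tested on simulated data. Exact permutation tests used scipy 1.17.1. The 95% intervals come from limma's moderated variance. Whether hearts of a group came from separate experiments beyond separate pigs is not given.

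The members, gene lists and tests were chosen with earlier results of these data known. Named genes were all members, called members of each list, at most the 3 largest changes among those not called, the 5 genes with a symbol most correlated with CYP1A1 and with TIPARP, and RefSeq neighbours. The values of 1 gene that this rule names are not reported here. CYP1A2, GSTA1, LRAT, IDO1, IDO2, TDO2 and AADAT are named for being below the filter, and CYP27A1 and CYP51A1 as the next P450 genes, chosen after their values were seen. Alternatives were another pseudocount (0.1), no filter, a mean of at least 5 TPM, quantile normalization, median-of-ratios scaling, leaving out mitochondrially encoded genes, fitting 6 hearts, no trend, robust moderation, array weights (statmod 1.5.0) and leaving out each heart.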

Additional observations from a re-analysis of the deposited data

How the results depend on the processing

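CYP1A1 and TIPARP kept their direction in all 3 comparisons under the 19 alternatives. In Group 3 over Group 2 the adjusted p of CYP1A1 (limma) ranged from 0.175 to 0.701, and its log2 fold change from 1.60 without pig 34 to 3.29 without pig 33, with 1.85 under array weights. TIPARP ranged from 1.39 to 1.93 without single hearts, with an adjusted p from 0.0254 to 0.728, and passed the threshold only under array weights (1.74), where the count of called members was 1 instead of 0. The cause was not tested. Members with log2 fold changes near 0 changed sign, but not only those. ALDH3A1 in Group 3 over Group 2 went from 0.48 to -0.11 without pig 25. ARNT in Group 1 over Group 3 went from -0.18 to 0.10 without pig 27. In Group 3 over Group 2, AHR was 0.04 after quantile normalization, 0.05 after median-of-ratios scaling and, under array weights, 0.03, while ARNT was -0.01 with a pseudocount of 0.1 and -0.02 without mitochondrially encoded genes. In Group 1 over Group 3, AHR was 0.03, 0.01 and 0.12 under those 3 settings and ALDH3A1 was -0.14 with array weights. Without single hearts, Group 3 over Group 2 ranged from -0.19 to 0.19 for AHR, -0.18 to 0.28 for ARNT, -0.10 to 0.22 for NQO1 and -0.11 to 0.85 for ALDH3A1, and Group 1 over Group 3 from -0.21 to 0.13 for AHR, -0.46 to 0.10 for ARNT and -0.43 to 0.38 for ALDH3A1. Over all genes, 6 were called in Group 3 over Group 2, against 1 without a filter, 12 after quantile normalization, 19 after median-of-ratios scaling, 19 without mitochondrially encoded genes, 3 in a fit of 6 hearts, 11 with robust moderation, 94 with array weights and 1 to 13 without single hearts. In Group 1 over Group 3, 6 were called, against 3 with a pseudocount of 0.1, median-of-ratios scaling or quantile normalization, 2 without mitochondrially encoded genes, 14 with array weights and 0 to 16 without single hearts. Median-of-ratios scaling moved the median of all genes in Group 1 over Group 2 from -0.12 to 0.00. No paired analysis was possible because pig numbers differ between the groups. With 3 hearts per group and unknown depth, the intervals of the members that were not called limit what could be detected.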

Other observations

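Of a list of 18 immediate early genes, which respond within minutes to stress or growth signals, 14 were listed and 13 tested. Of these, 0 were called in either tested comparison (limma), beside 0.0509% of all genes tested in each. At an unadjusted p under 0.05 there were 0 in Group 3 over Group 2, beside 7.22% of all genes, and 1 (IER3) in Group 1 over Group 3, beside 6.01%. IER3, an early response gene that dampens cell death, had 360, 710 and 596 TPM in NRP + HOPE 24 h, 136, 210 and 139 TPM in No NRP + HOPE 2 h, and 181, 236 and 151 TPM in NRP + SCS 2 h. The Group 1 hearts were above all others, and the log2 fold change of Group 1 over Group 3 was 1.75 (SE 0.30, adjusted p = 0.0815, limma, exact permutation p = 0.1), short of the threshold. Groups 3 and 2 overlapped in IER3 (log2 fold change -0.23, adjusted p = 0.923, limma). ATF3 and FOS, transcription factors of the stress response, were highest in pig 34 at 265 and 562 TPM, against 50.3 to 142 TPM and 99.6 to 243 TPM in the other hearts.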
